A study of Mus musculus with 8 samples.

Results

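Collagen genes were taken as every gene of the mouse mammary single-cell series whose symbol had the form *Col*, a number, *a*, a number and which had 20 or more unique molecular identifiers (UMIs, tags that count captured RNA molecules) over all cells that passed the authors' filters. Of 27998 genes in the matrices, 44 symbols had this form and 39 reached 20 UMIs, against 16438 genes of any kind that did. The 5 that fell short were *Col19a1* with 16 UMIs, *Col26a1* with 7, *Col10a1* and *Col22a1* with 5 each and *Col24a1* with 2, while the members just inside were *Col2a1* with 20, *Col28a1* with 29 and *Col6a5* with 35. The largest totals were 32114 UMIs for *Col4a1*, 26057 for *Col4a2*, 25578 for *Col3a1* and 20202 for *Col1a2*. Cells came from the mammary glands of C57BL/6N mice, were sorted as EpCAM+ after depletion of CD31, CD45 and Ter119 positive cells, and were run on the 10x Chromium 3′ platform with 1 library per mouse. The labels name no transgene, allele or drug for any group. There were 8 mice, 2 for each of 4 stages: nulliparous (NP, 8 weeks old), gestation (G, day 14.5), lactation (L, day 6) and post involution (PI, 11 days after weaning). Each library is 1 mouse, so the values of 2 mice give the spread within a stage.

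Collagens are proteins of the extracellular matrix in which chains with a Gly-X-Y repeat wind into a triple helix. Fibril-forming collagens build the cables of the stroma, whereas type IV collagens form the sheet-like network of the basement membrane on which mammary basal cells sit. Other members link these layers: type VII forms anchoring fibrils, type XVII spans the membrane in hemidesmosomes, type VI forms beaded filaments, and the fibril-associated collagens decorate the surface of fibrils. By this textbook grouping the 39 members were 10 fibril-forming, 6 basement membrane type IV, 6 type VI, 7 fibril-associated, 4 transmembrane, 2 short-chain type VIII, 2 endostatin-bearing, 1 type VII and 1 type XXVIII gene.

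All 39 members had a position in the GENCODE annotation of GRCm38, on 14 chromosomes, and the 6 type IV genes lay in 3 head to head pairs. *Col4a1* (chr8:11198423-11312826, minus strand) and *Col4a2* (chr8:11312805-11449287, plus strand) overlapped by 22 bases at their starts, *Col4a4* and *Col4a3* on chromosome 1 lay 71 bases apart, and *Col4a6* (chrX:141165403-141474076, minus strand) and *Col4a5* (chrX:141475385-141689234, plus strand) lay 1308 bases apart. RefSeq promoter windows of 250 bases before to 50 bases after the start (GRCm38.p6) were held for 32 of the 39 members. The windows of the 2 pairs that carry most of the type IV UMIs are shown because their members moved in different proportions below. Capitals mark the CCAAT box (CCAAT) and the GC box (GGGCGG), each searched on both strands, so that ATTGG and CCGCCC are the same boxes on the opposite strand. They stand at chr8:11312777-11313076 (minus strand) for *Col4a1*, chr8:11312555-11312854 (plus) for *Col4a2*, chrX:141474027-141474326 (minus) for *Col4a6* and chrX:141475169-141475468 (plus) for *Col4a5*.
Col4a1: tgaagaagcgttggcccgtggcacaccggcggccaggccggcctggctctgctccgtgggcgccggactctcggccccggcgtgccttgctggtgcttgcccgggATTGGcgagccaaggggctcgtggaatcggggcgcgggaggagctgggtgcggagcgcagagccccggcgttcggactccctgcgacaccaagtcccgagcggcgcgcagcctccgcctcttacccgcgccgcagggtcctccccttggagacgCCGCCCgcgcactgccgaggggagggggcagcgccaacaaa
Col4a2: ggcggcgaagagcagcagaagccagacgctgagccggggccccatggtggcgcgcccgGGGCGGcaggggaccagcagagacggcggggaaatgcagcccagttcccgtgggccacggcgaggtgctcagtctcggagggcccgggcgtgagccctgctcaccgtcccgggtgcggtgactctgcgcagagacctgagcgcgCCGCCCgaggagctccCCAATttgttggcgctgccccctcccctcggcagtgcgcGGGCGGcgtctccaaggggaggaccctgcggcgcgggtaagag
Col4a6: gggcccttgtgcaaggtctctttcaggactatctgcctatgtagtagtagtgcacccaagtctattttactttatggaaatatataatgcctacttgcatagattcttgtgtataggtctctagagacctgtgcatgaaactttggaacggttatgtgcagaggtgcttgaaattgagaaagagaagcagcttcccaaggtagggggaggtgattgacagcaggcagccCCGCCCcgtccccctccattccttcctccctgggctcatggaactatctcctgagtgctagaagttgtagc
Col4a5: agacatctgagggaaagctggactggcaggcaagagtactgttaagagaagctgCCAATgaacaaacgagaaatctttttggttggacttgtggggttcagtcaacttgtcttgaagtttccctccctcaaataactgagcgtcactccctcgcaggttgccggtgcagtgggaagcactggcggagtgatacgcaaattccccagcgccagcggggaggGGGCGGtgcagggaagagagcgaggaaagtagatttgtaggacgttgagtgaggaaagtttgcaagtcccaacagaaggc
The *Col4a1* and *Col4a2* windows shared 78 bases and had a GC content of 74% and 73.7%, with 1 CCAAT and 1 GGGCGG match in the first and 1 and 3 in the second. The *Col4a6* and *Col4a5* windows lay 842 bases apart and had a GC content of 48.3% and 52.7%, with 1 GGGCGG match each and a CCAAT match in *Col4a5* alone. None of the 4 held the TATA box letters TATAAA. Over all 32851 promoter windows, 37.4% held CCAAT, 35.7% GGGCGG and 13.6% TATAAA, and 13, 22 and 4 of the 32 members did. These matches describe the letters of the windows and were not tested for binding.

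Across libraries 25009 cells passed the authors' filters, with 13306760 to 34552742 UMIs per library, and 791 of 25806 cell barcodes occurred in more than 1 library. Levels are given as CPM, a gene's UMIs per 1000000 UMIs of the cells summed, in each mouse and cluster with 20 or more cells. The 3′ tags count molecules and do not scale with transcript length. The authors numbered their clusters C1 to C20, and used collagens to name C18 fibroblasts, so that levels between clusters are a description and were not tested. Basal cells were C12 (mainly NP and PI), C13 (mainly G) and C14 (mainly L), summed together in each mouse. Luminal progenitors were C6 and C7, hormone-sensing progenitors C1 and C2, differentiated hormone-sensing cells C3 and C4, alveolar differentiated cells C8 and C9 and alveolar progenitors C10 and C11. Basal sums held 504 and 283 cells at NP, 528 and 604 at G and 4639 and 3105 at L, but only 28 and 59 at PI. The authors placed C15 in the basal compartment as Procr+ basal cells and noted pericyte markers in it themselves. Here 7 pericyte markers summed to 6216 and 5380 CPM in C15, which is called by its number. *Col1a1*, *Col1a2* and *Col3a1* in NP mouse 2 stood apart: the same 3 of its 316 C6 cells held 71 of 72, 116 of 117 and 87 of 93 of their UMIs. Vaginal smears placed the NP mice and PI mouse 2 in oestrus and PI mouse 1 in dioestrus, and at PI the cycle phase and the mouse cannot be told apart.

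The 39 members split between stromal and basal clusters. Of the highest mean levels by cluster and stage, 19 fell in C18, 11 in C13, 2 each in C14 and C19 and 1 each in C1, C3, C4, C12 and C15. No minimum level was asked for, and some of these placements rest on scarce genes. *Col4a3* and *Col6a5* were highest in C18 at PI at 7.25 CPM each, in 1 mouse. *Col11a2* in C19 was at 2.63 CPM, *Col8a2* in C4 at 2.54, *Col20a1* in C1 at 1.19 and *Col2a1* in C12 at 0.693. Among the clusters the authors called epithelial (C1 to C15), 16 members were highest in C13 and 13 in C15. Summed over members, basal cells held 1323 and 1654 CPM of collagen RNA at NP, 4167 and 4204 at G, 2137 and 2189 at L and 761 and 998 at PI. No luminal type exceeded 472 CPM in any mouse, the lowest being 125 CPM in differentiated hormone-sensing cells of NP mouse 2.

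**Figure D1:**
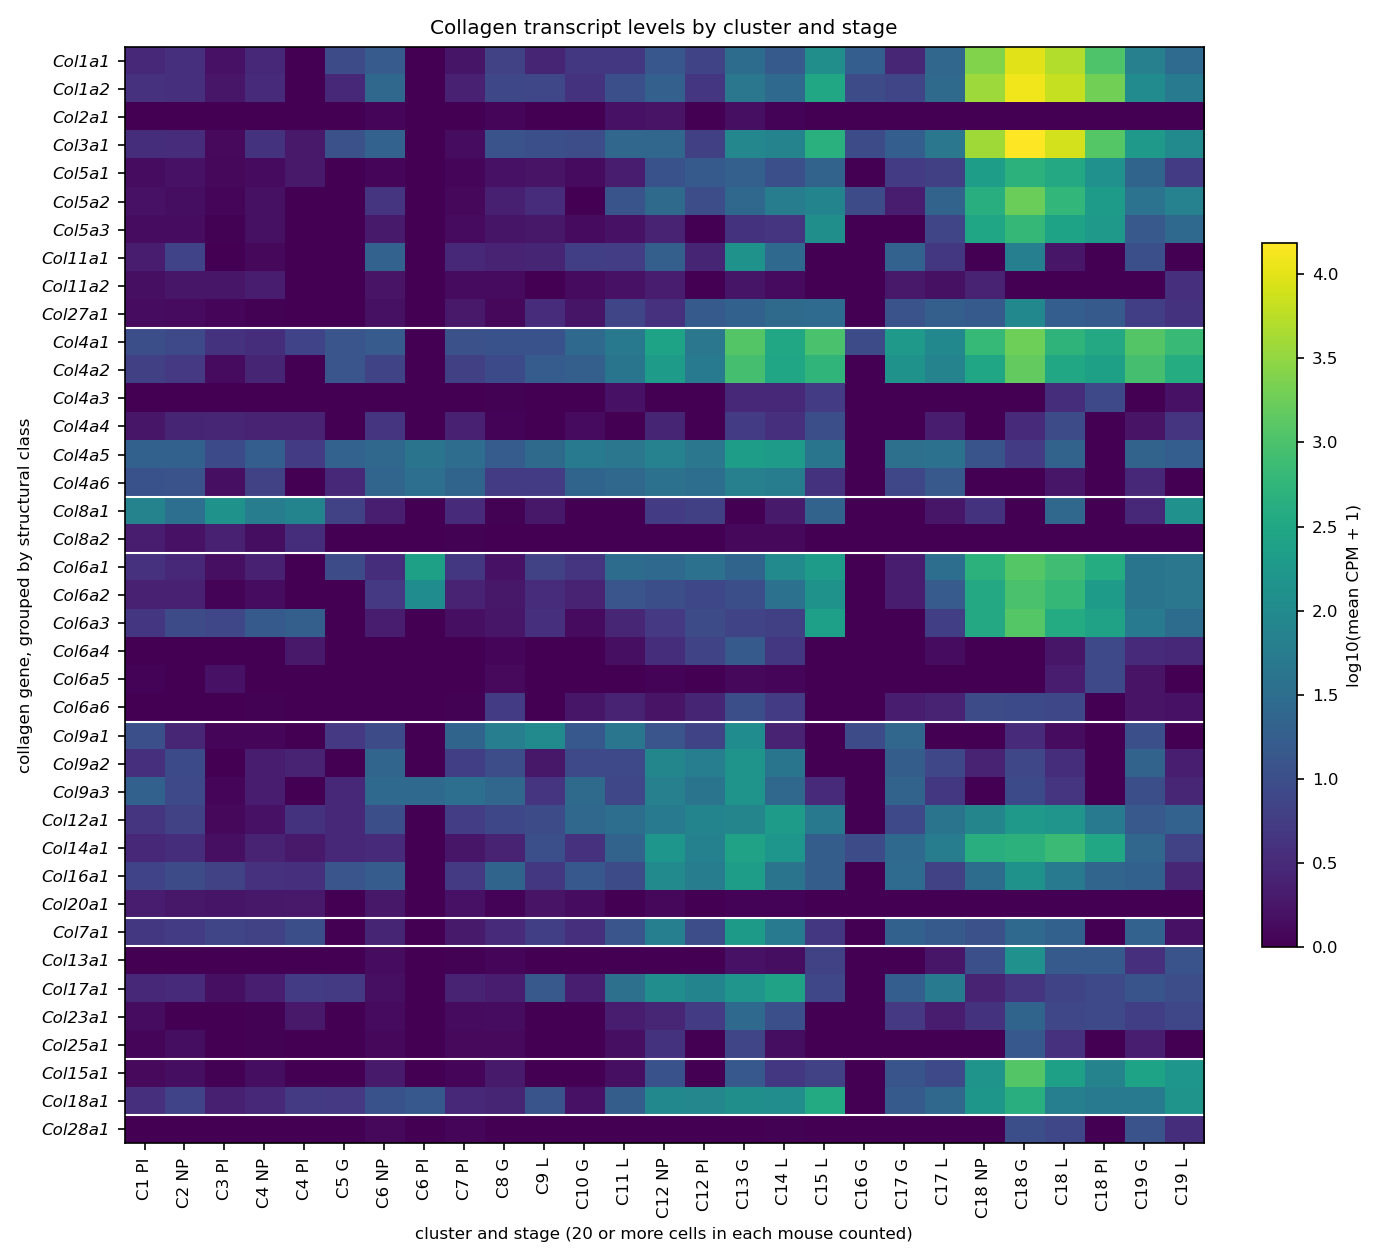
Mean level of each of the 39 collagen genes (y axis, grouped by structural class) in each cluster and stage with 20 or more cells per mouse (x axis), coloured by log10(mean CPM + 1). *Col3a1* in C18 at gestation is the most intense cell at a mean of 15302 CPM, and *Col8a1* is bright in the hormone-sensing clusters C1 to C4 and in C19 at lactation.

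The stromal fibrillar genes set the scale. *Col3a1*, the chain of type III collagen, reached 14458 and 16147 CPM in C18 at G, 8026 and 8085 at L, 2144 and 5556 at NP and 1204 in the 1 PI mouse with enough C18 cells. The 2 chains of type I collagen followed, *Col1a2* at 11360.4 and 13780.5 CPM and *Col1a1* at 8458 and 11348 CPM in C18 at G. Type V and VI chains were lower in the same cells, with *Col5a2* at 1657 and 1828 CPM and *Col6a1* at 1236 and 1130 CPM. The sort was gated against stromal cells, yet C18 held the stromal label by other genes too, since 8 fibroblast markers without any collagen summed to 10986 to 20687 CPM there.

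C19, which the authors tagged as endothelial cells, and C15 also carried the type IV pair *Col4a1* and *Col4a2*. At G *Col4a1* stood at 1246 and 1112 CPM in C19, close to the 1153 and 1136 CPM of basal C13 and below the 1508 and 2160 CPM of C18. At L it stood at 1059 and 881 CPM in C15, above the 313 and 341 CPM of basal C14, and *Col4a2* at 647 and 441 CPM in C15 against 298 and 293 CPM in C14. *Col15a1*, an endostatin-bearing collagen of vessel walls, was at 265 and 274 CPM in C19 at G, against 924 and 1396 CPM in C18 and 13.9 and 12.1 CPM in C13. *Col18a1*, its basement membrane relative, was highest in C18 at G (462 and 419 CPM) and next in C15 (349 and 360 CPM). In C15 the fibrillar genes differed between the 2 lactating mice, *Col3a1* being at 741 CPM in L mouse 1 and 151 CPM in L mouse 2.

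Basal cells at gestation were highest for 11 members, some of which C18 also held. Type IV chain *Col4a5* averaged 225 CPM in C13 and 200 CPM in C14, but reached at most 21.7 CPM in any mouse's C18. *Col16a1* had a mean of 218 CPM in C13 and 133 CPM in C18 at G, and *Col11a1* 133 and 62.5 CPM. The type IX chains, which coat cartilage fibrils, were also highest by mean in C13, with *Col9a3* at 147 CPM, *Col9a2* at 145 CPM and *Col9a1* at 109 CPM, the mice of the last overlapping those of C9 at L (mean 98.5 CPM). *Col17a1* peaked later, at 253 CPM in lactating C14 cells. *Col12a1* was highest by mean in C14 at 197 CPM, but its mice overlapped those of C18 at G, where the mean was 177 CPM.

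Between NP and G, basal cells raised most of the collagens that could be tested. Of 31 members with enough UMIs (the other 8 were *Col13a1*, *Col11a2*, *Col4a3*, *Col20a1*, *Col8a2*, *Col6a5*, *Col28a1* and *Col2a1*), 22 rose and 1 fell, against 21% of 11870 tested genes that rose and 18.9% that fell. The median log2 fold change was 1.22 over the members and 0.01 over all genes. Called means a Benjamini-Hochberg adjusted p under 0.05 over all genes tested, from edgeR's quasi-likelihood test on UMIs summed per mouse, which borrows its estimate of spread across genes, since an exact permutation test of 2 against 2 mice cannot go below p = 0.333. Without NP mouse 1 the count was 15, and 8 calls were lost: *Col1a1*, *Col1a2*, *Col5a1*, *Col9a2*, *Col12a1*, *Col14a1*, *Col17a1* and *Col18a1*.

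The basement membrane network led this rise in abundance. *Col4a1* was at 216 and 318 CPM in the NP mice and at 1149 and 1121 CPM in the G mice, a 4.49-fold change (log2 2.17 ± 0.22 SE, edgeR adjusted p = 1.99e-06). Its partner *Col4a2* went from 173 and 232 to 846 and 929 CPM (log2 2.21 ± 0.18, edgeR adjusted p = 1.27e-07). The G mice lay far above the NP mice for both chains and close to each other. *Col4a5* rose from 70.5 and 67.8 to 214 and 234 CPM (log2 1.77 ± 0.14, edgeR adjusted p = 1.27e-07), and *Col4a6*, its neighbour on X, from 38.1 and 35.5 to 62.4 and 68.0 CPM (log2 0.90 ± 0.16, edgeR adjusted p = 0.000352). *Col4a4* did not pass (edgeR adjusted p = 0.0655). At the cell level 97.9% and 98.7% of C13 cells had a *Col4a1* UMI against 65.1% and 72.3% of C12 cells at NP. At an expected depth of 1000 UMIs per cell these shares were 65.1% and 64.9% against 17.2% and 23.5%.

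Links between the basement membrane and the stroma rose with it. *Col7a1*, the anchoring fibril gene, was at 51.2 and 76.5 CPM at NP and 178 and 194 CPM at G (log2 1.65 ± 0.20, edgeR adjusted p = 8.3e-06). *Col17a1* changed little in size, from 114 and 112 to 149 and 149 CPM (log2 0.48 ± 0.14, edgeR adjusted p = 0.0123), and that call was lost without NP mouse 1, NP mouse 2 or G mouse 1. Of the type IX genes *Col9a1* changed the most. It went from 4.23 and 19.1 to 117 and 99.9 CPM, a change of 3.53 ± 0.35 on the log2 scale (edgeR adjusted p = 1.17e-06), with the 2 NP mice differing more than the 2 G mice. All 6 tested fibril-associated members rose, *Col16a1* among them from 99.9 and 95.1 to 208 and 225 CPM (log2 1.22 ± 0.15, edgeR adjusted p = 9.86e-06). *Col9a3* went from 70.5 and 62.8 to 146 and 147 CPM and *Col9a2* from 75.2 and 89.2 to 138 and 150 CPM. *Col14a1* went from 140 and 181 to 260 and 246 CPM and *Col12a1* from 39.5 and 62.4 to 87 and 69.6 CPM, the smallest changes of this class at log2 0.74 and 0.73. The endostatin-bearing *Col18a1* rose from 81.3 and 93.8 to 116 and 121 CPM (edgeR adjusted p = 0.0135), whereas *Col15a1* was not called (edgeR adjusted p = 0.281). *Col12a1* was also lost without G mouse 1 and *Col18a1* without G mouse 2.

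*Col11a1*, a minor fibril chain best known from cartilage, rose from 14.6 and 21.4 to 130 and 135 CPM (log2 3.01 ± 0.27, edgeR adjusted p = 5.1e-07). The transmembrane collagen gene *Col23a1* went from 2.82 and 0.91 to 26.2 and 25.4 CPM and *Col27a1*, a fibril-forming member, from 3.06 and 2.73 to 15.3 and 21.8 CPM. Among type VI chains 2 of 5 tested rose, both scarce: *Col6a6* from 0 and 1.37 to 9.31 and 8.98 CPM and *Col6a4* from 3.29 and 1.82 to 15.1 and 13.5 CPM. *Col5a1*, a type V fibril chain, rose from 9.64 and 10.9 to 15.3 and 21.1 CPM, a call lost also without G mouse 2. *Col8a1* alone fell. It had 29 UMIs in the NP basal sums (4.94 and 3.64 CPM) and 0 of 8431748 UMIs in the G sums. With 3 counts over the G group as the floor of a zero (0.356 CPM), it was at least 12.6-fold lower at G. In NP mouse 1 *Col8a1* in differentiated hormone-sensing cells was at 1283% of its basal level. Those cells numbered 983 and 1217 at NP, while C5, the hormone-sensing cluster at G, held 20 and 41. The part of hormone-sensing RNA in the NP basal values was not tested.

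The major stromal fibril genes also passed, at a level that few cells set. *Col3a1* rose from 11.5 and 34.1 to 94.1 and 79.0 CPM (log2 2.14 ± 0.31, edgeR adjusted p = 4.65e-05), *Col1a2* from 13.4 and 22.8 to 51.1 and 37.3 CPM (edgeR adjusted p = 0.014) and *Col1a1* from 10.1 and 15.5 to 37.7 and 22.7 CPM (edgeR adjusted p = 0.0287). In C13 of G mouse 1 the top 3 of 525 cells held 158 of 198 *Col1a2* UMIs (79.8%) and 127 of 141 *Col1a1* UMIs (90.1%), and in G mouse 2 the top 3 of 594 cells held 76.4% and 85%. The *Col3a1* UMIs were spread more widely, over 151 and 122 cells, with 45.4% and 50% in the top 3. The 8 fibroblast markers without collagen summed to 167 and 228 CPM in basal cells at NP, 759 and 571 at G, 583 and 447 at L and 78.7 and 182 at PI, all 8 being detected at NP, G and L. *Dcn* made up most of these sums, at 138 and 183 CPM at NP and 698 and 522 CPM at G, and the other 7 markers summed to 28.9 and 45.1 CPM at NP, 60.4 and 48.7 at G, 86.1 and 23.2 at L and 17.5 and 35.2 at PI. At G *Dcn* in basal cells was at 8.87% and 7.54% of its C18 level and *Lum* at 0.356% and 0.154%. *Col3a1* was at 0.537% and 0.615% of its C18 level at NP and 0.651% and 0.489% at G. *Col1a2* was at 0.533% and 0.458% at NP and 0.449% and 0.270% at G. *Col1a1* was at 0.619% and 0.478% at NP and 0.446% and 0.200% at G. The part of fibroblast RNA in the fibrillar values was not tested. The calls for *Col1a1* and *Col1a2* were lost without NP mouse 1 (adjusted p = 0.254 and 0.195 in edgeR) and without G mouse 1 (adjusted p = 0.215 and 0.0946 in edgeR).

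From G to L the members divided. In basal cells 7 rose and 14 fell of the same 31, with 25.2% of all tested genes higher and 24.9% lower, and the median log2 fold change was -0.60 over the members and 0.03 over all genes. Taking both steps together, 12 members rose and then fell, 7 rose with no further call, 3 rose at both steps, 3 rose only at the second step, 2 fell only at the second step, 3 had no call at either, and *Col8a1* fell and then rose.

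The 12 that rose and fell included both abundant type IV chains and all 3 type IX chains. *Col4a1* dropped to 313 and 341 CPM at L (log2 -1.67 ± 0.22, edgeR adjusted p = 8.65e-06) and *Col4a2* to 298 and 293 CPM (log2 -1.46 ± 0.17, edgeR adjusted p = 2.21e-06). *Col9a1* fell to 1.47 and 1.5 CPM (log2 -6.05 ± 0.35, edgeR adjusted p = 1.1e-09), below both NP mice. *Col16a1* also ended below NP, at 40.1 and 39.2 CPM. *Col7a1* came back to 56.5 and 51.4 CPM, within the range of the NP mice. *Col9a3* fell to 21.6 and 27 CPM, *Col9a2* to 31.3 and 51.3 CPM and *Col11a1* to 18.7 and 32.9 CPM, so that the cartilage-type chains left their gestation level together. The others were *Col14a1* (147 and 165 CPM), *Col23a1* (7.43 and 11.3 CPM), *Col5a1* (9.32 and 9.81 CPM) and *Col6a4* (3.69 and 3.97 CPM). *Col15a1* and *Col25a1*, a transmembrane collagen, fell at this step alone, from 13.8 and 12.3 to 4.73 and 2.89 CPM and from 6.29 and 6.51 to 0.426 and 0.481 CPM. The call for *Col5a1* was lost without G mouse 2 (adjusted p = 0.173 in edgeR).

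*Col4a5* and *Col4a6* were not called between G and L, with log2 changes of -0.04 ± 0.13 and -0.09 ± 0.14. They stood at 197 and 203 CPM and at 54.4 and 57.6 CPM at L. The 3 members that rose at both steps were *Col17a1*, *Col12a1* and *Col27a1*. Hemidesmosomal *Col17a1* reached 240 and 265 CPM (log2 0.89 ± 0.13, edgeR adjusted p = 3.49e-05), and *Col12a1*, which binds fibril surfaces, 181 and 213 CPM (log2 1.46 ± 0.19, edgeR adjusted p = 1.1e-05). *Col27a1* was at 28.8 and 24.1 CPM, and its second call was lost without G mouse 1 or L mouse 1. The type VI chains *Col6a1* and *Col6a2* moved at this step alone: *Col6a1* went from 21.9 and 23.3 to 119 and 84.1 CPM (log2 2.29 ± 0.18, edgeR adjusted p = 2.76e-08) and *Col6a2* from 10.6 and 8.08 to 43.9 and 28.6 CPM (log2 2.10 ± 0.25, edgeR adjusted p = 3.61e-06). *Col5a2*, a type V chain, also rose at this step alone, from 24.9 and 22.4 to 52.1 and 62.1 CPM (log2 1.4 ± 0.21, edgeR adjusted p = 3.41e-05). *Col8a1* returned at 1.14 and 0.842 CPM, pooled at least 2.83-fold above its floor at G, and lost the call without G mouse 2. The remaining chain of the type VI trimer, *Col6a3*, was at 9.31 and 3.14 CPM at G and 9.08 and 1.44 CPM at L and was not called. Pericyte markers, of which all 7 were detected, summed to 27.9 and 41.1 CPM in basal cells at G and 129 and 58.5 CPM at L, and their part in the type VI values was not tested.

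Set directly against NP, lactating basal cells had 14 members higher and 7 lower of 31, with 31.7% of all genes higher and 30.5% lower, so that the members were called lower no more often than genes at large. The higher ones included *Col4a5* (log2 1.73 ± 0.14, edgeR adjusted p = 1.36e-08), *Col12a1* (log2 2.20 ± 0.21, edgeR adjusted p = 1.3e-07) and *Col3a1* (log2 2.01 ± 0.30, edgeR adjusted p = 1.89e-05). Basal *Col3a1* was at 0.537% and 0.615% of its C18 level at NP and 0.999% and 0.796% at L. The part of fibroblast RNA in it was not tested. *Col4a1* was not called (log2 0.50 ± 0.22, edgeR adjusted p = 0.0542), and its L values overlapped those at NP. The 7 lower members were *Col9a1*, *Col9a2*, *Col9a3*, *Col16a1*, *Col15a1*, *Col25a1* and *Col8a1*. Calls were lost for *Col11a1*, *Col18a1* and *Col8a1* without NP mouse 1, *Col15a1* without NP mouse 2 or L mouse 2, *Col9a2* without L mouse 1 and *Col11a1* without L mouse 2. The RLE scaling moved the median of all genes to 0.14 in this comparison, from 0.02 with TMM, and called 15 higher and 7 lower.

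**Figure D2:**
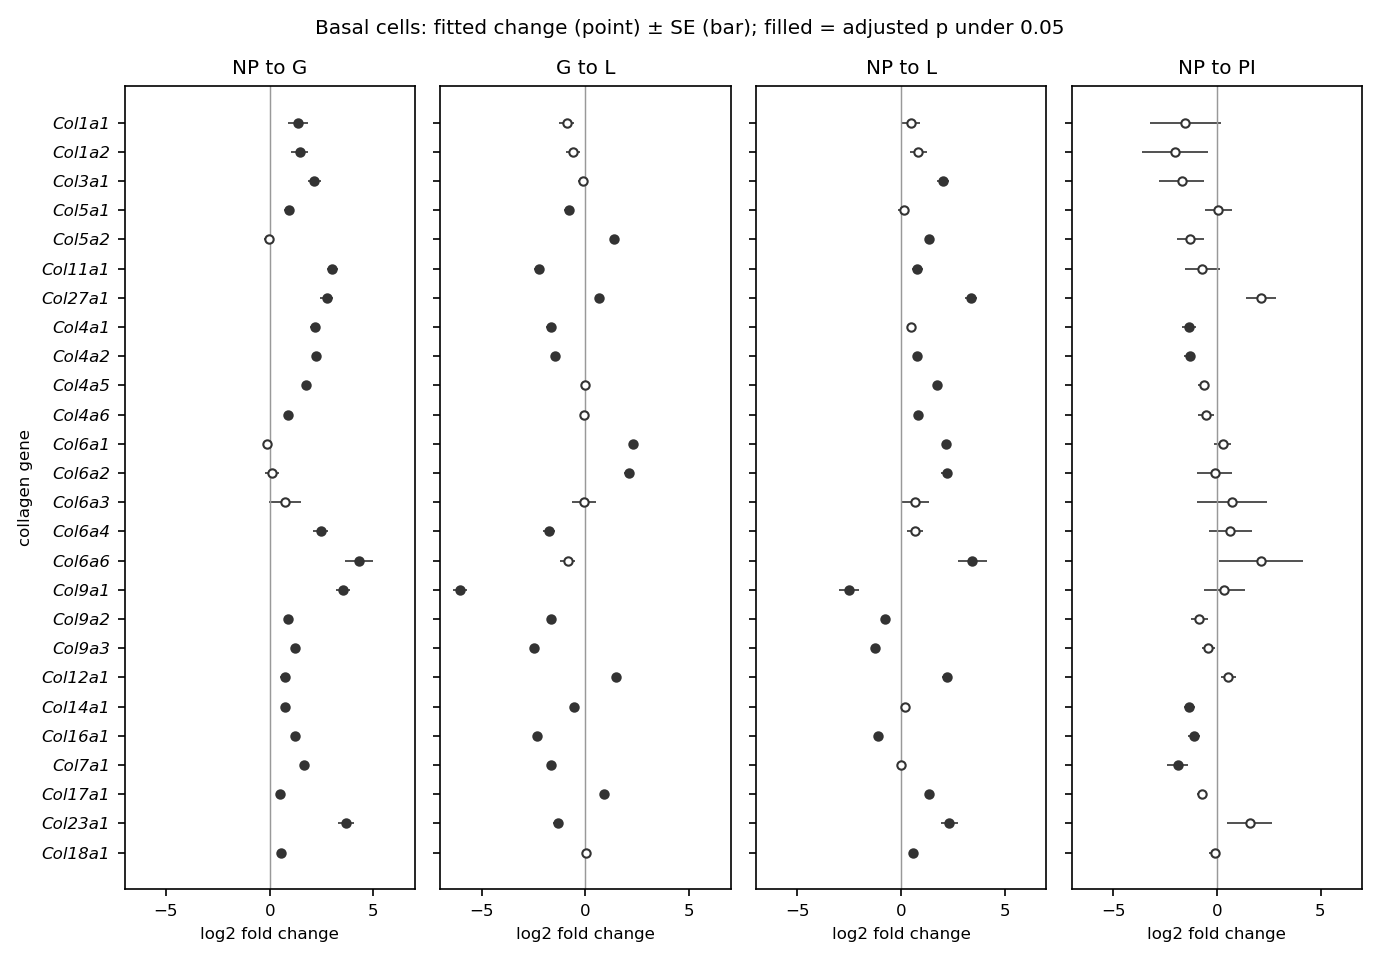
Log2 fold change (x axis, with SE) of 26 collagen genes (y axis) in basal cells for NP to G, G to L, NP to L and NP to PI; filled points had an adjusted p under 0.05, and 5 tested genes with 0 UMIs in a group are left out. Most points lie right of 0 for NP to G, *Col9a1* has the lowest value for G to L at -6.05, and error bars are widest for PI.

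After involution few basal cells were left to measure. Of 31 members 0 rose and 5 fell relative to NP, beside 1.92% of all genes higher and 2.54% lower, and the median log2 fold change was -0.70 over the members and -0.20 over all genes. DESeq2 called 1 member higher and 4 lower. *Col4a1* was at 216 and 318 CPM at NP and at 35.0 and 154 CPM at PI (log2 -1.33 ± 0.33, edgeR adjusted p = 0.0259). *Col4a2* went to 52.5 and 106 CPM (log2 -1.31 ± 0.28, edgeR adjusted p = 0.0102), and *Col14a1* from 140 and 181 to 69.9 and 70.4 CPM (log2 -1.32 ± 0.27, edgeR adjusted p = 0.00817). The groups of these genes did not overlap, but the PI mice differed by more than the NP mice for *Col4a1*. The basal sum of PI mouse 2 held 5 C13 cells and 1 C14 cell beside 53 C12 cells. Of its 104 type IV UMIs, only 54 came from the C12 cells. The other 2 calls, *Col7a1* and *Col16a1*, had adjusted p of 0.0483 and 0.0455 in edgeR. Each of the 5 calls was lost on leaving out at least 1 mouse, and 2 members remained without NP mouse 2, 1 without PI mouse 1 and 1 without PI mouse 2. In PI mouse 1 the basal sum held 114382 UMIs, so that a gene at 0 could lie at up to 26.2 CPM.

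Type IV chains changed in proportion as well as level. *Col4a5* and *Col4a6* together made up 12.1% (exact 95% interval 11.5 to 12.8) and 12.8% (12.2 to 13.5) of the type IV UMIs of G basal cells. At L they made up 28.9% (28.3 to 29.6) and 29.0% (28.3 to 29.7), and at NP 21.7% (20.0 to 23.6) and 15.8% (13.9 to 17.8). The 2 NP mice differed beyond their intervals, which cover counting error only, yet both lay between G and L. In luminal sums outside lactation these 2 chains were the larger part, for example at 80.5% and 78.0% in C4, 79.4% and 72.6% in C7 and 53.7% and 51.5% in C8, and at L they were 37.9% and 48.6% in C11. In C15, C18 and C19 they made up at most 3.75% in any mouse, *Col4a1* and *Col4a2* being nearly all of the type IV UMIs.

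**Figure D3:**
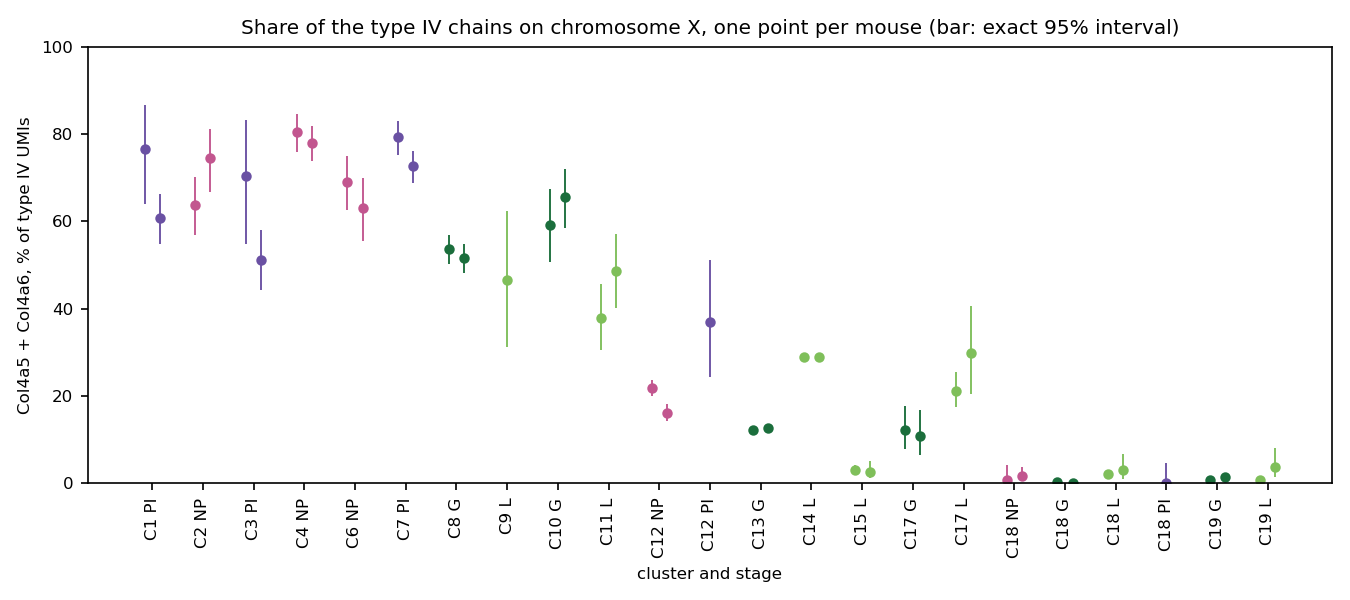
Share of type IV collagen UMIs that came from *Col4a5* and *Col4a6* (y axis, %) in each cluster and mouse with 30 or more type IV UMIs (x axis), with exact 95% binomial intervals. Luminal points lie at 37.9% or above, C13 at 12.1% and 12.7%, C14 near 29%, and C15, C18 and C19 below 4%.

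In hormone-sensing cells 1 collagen stood out most in level. *Col8a1*, a short-chain collagen of endothelial and corneal basement membranes (chr16:57624258-57754737), was at 63.4 and 53.5 CPM in differentiated hormone-sensing cells at NP and at 159 and 117 CPM at PI (log2 1.17 ± 0.16, edgeR adjusted p = 0.000872). Both PI mice lay above both NP mice. Hormone-sensing progenitors showed the same order, with 36.9 and 29.8 CPM at NP and 84.6 and 62.0 CPM at PI (log2 1.09 ± 0.17, edgeR adjusted p = 0.00124), a call lost without NP mouse 2 (adjusted p = 0.0512 in edgeR). In C5, the hormone-sensing cluster at G with 20 and 41 cells, *Col8a1* was at 0 and 11.6 CPM. Outside these cells *Col8a1* was at 2.30 and 2.13 CPM in C7, at most 0.0756 CPM in C8 and at 71.8 and 189 CPM in C19 at L. A UMI of the gene was found in 60.2% and 40.9% of C3 cells (median 7179 and 5638 UMIs per cell) and 43.2% and 38.8% of C4 cells (10163 and 10309), against 3.17% and 1.77% of C12 cells at NP (6046 and 6302.5). At an expected depth of 1000 UMIs these shares were 14.7% and 10.5%, 5.66% and 5.06%, and 0.276% and 0.245%. Its partner chain *Col8a2* did not exceed 3.16 CPM in any C1 to C4 sum. *Col6a3* was also above its basal level in NP mouse 1. It had 227 UMIs in differentiated hormone-sensing cells (473% of the basal level) and 50 in hormone-sensing progenitors (257%). The basal sum of that mouse held 16 *Col6a3* UMIs.

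**Figure D4:**
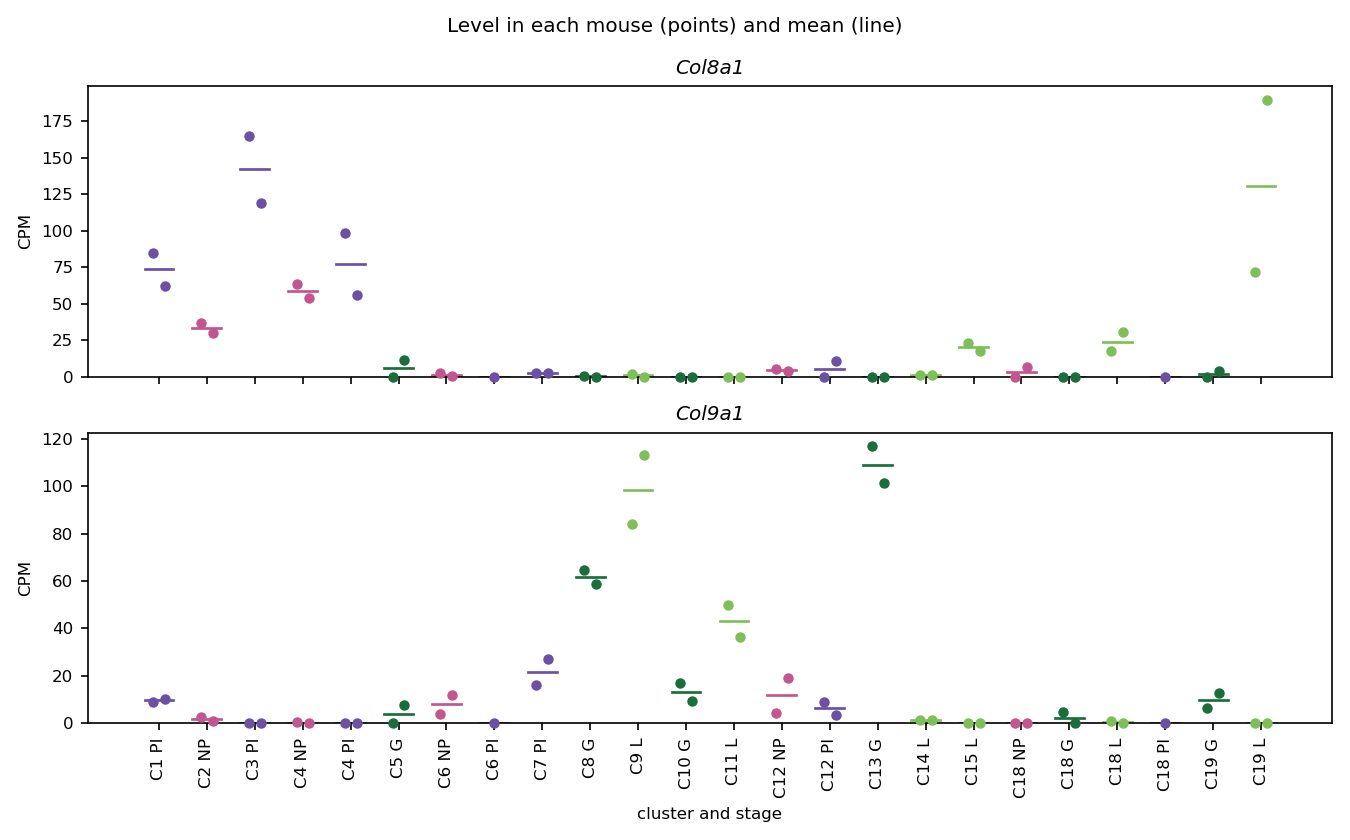
Level of *Col8a1* and *Col9a1* (y axis, CPM) in each cluster and stage (x axis), 1 point per mouse. *Col8a1* is high in C1 to C4 and in C19 at L, and *Col9a1* in C8, C9 and C13, where it reached 117 and 101 CPM.

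Other members fell in differentiated hormone-sensing cells between NP and PI. Of 20 tested members 1 rose and 6 fell, while 14.3% of all genes were called in either direction. *Col4a6* went from 5.17 and 5.43 to 0.548 and 0.311 CPM (log2 -3.87 ± 0.44, edgeR adjusted p = 0.000202) and *Col4a5* from 16.1 and 17.3 to 8.22 and 6.6 CPM (log2 -1.28 ± 0.20, edgeR adjusted p = 0.00163). The head to head neighbours thus fell together in these cells, the smaller one more. *Col4a2*, *Col3a1*, *Col14a1* and *Col9a2* were also called lower at levels under 5 CPM, and each was lost on leaving out at least 1 mouse. Without NP mouse 1 the count was 4, and DESeq2 called 1 higher and 3 lower. In PI mouse 2, C3 cells held 69 *Col4a1* UMIs and 5 *Col4a2* UMIs, a ratio of 13.8, whereas in basal sums the ratio was 1.05 to 1.45 in the mice measured.

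In hormone-sensing progenitors 3 members rose and 2 fell of 18 tested, with 16.6% of all genes called. Besides *Col8a1*, the type IX chains *Col9a1* (2.70 and 0.867 to 8.71 and 10.1 CPM) and *Col9a3* (8.11 and 6.36 to 17.4 and 19.2 CPM) rose, with log2 changes of 2.29 ± 0.43 and 1.33 ± 0.23 and edgeR adjusted p of 0.0035 and 0.00237. *Col11a1* and *Col9a2* fell, the latter at an edgeR adjusted p of 0.0499. *Col9a3* lost its call without NP mouse 2, *Col11a1* without either NP mouse and *Col9a2* without NP mouse 1 or PI mouse 1. The count was 3 without NP mouse 1 and 2 without NP mouse 2, and DESeq2 called 3 higher and 0 lower, so that neither lower call held in both tools.

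Luminal progenitors changed in the same period in 6 of 17 tested members, 1 higher and 5 lower, beside 26.9% of all genes called. *Col11a1* was at 17.5 and 22.4 CPM at NP and 1.59 and 2.37 CPM at PI (log2 -3.22 ± 0.31, edgeR adjusted p = 4.1e-05). *Col9a2* fell from 25 and 19.9 to 4.77 and 5.24 CPM (log2 -2.09 ± 0.23, edgeR adjusted p = 0.000106), and *Col18a1* from 10.9 and 9.52 to 1.59 and 2.74 CPM (log2 -2.14 ± 0.36, edgeR adjusted p = 0.00146). *Col16a1* followed with a log2 change of -1.82 ± 0.34. *Col9a1* alone rose, from 3.92 and 12 to 15.6 and 26.9 CPM (log2 1.59 ± 0.41, edgeR adjusted p = 0.015), and lost its call without NP mouse 1. The fifth lower call, *Col1a2*, was at 0.905 and 48.4 CPM at NP, where 3 cells of NP mouse 2 held 116 of 117 UMIs, and its log2 change was 0.84 without that mouse. DESeq2 called 0 higher and 4 lower, and without PI mouse 2 edgeR called 11.

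The NP to PI change was then compared between cell types in 1 model with mouse as a term. Of 11629 genes 5.57% differed between basal and differentiated hormone-sensing cells, among them 4 of 27 members: *Col4a6* (difference in log2 change, basal minus hormone-sensing, 3.23), *Col16a1* (-2.23), *Col4a1* (-1.75) and *Col7a1* (-1.75). The count was 1 without NP mouse 1, 0 without NP mouse 2 and 2 without PI mouse 2. Between luminal progenitors and differentiated hormone-sensing cells 13% of 12160 genes differed, and 5 of 22 members: *Col4a6* (3.92), *Col9a3* (2.72), *Col4a2* (2.56), *Col4a5* (1.66) and *Col16a1* (-2.67). The *Col9a3* call was lost without NP mouse 1, where its value was 1.27. *Col4a2* and *Col16a1* lost theirs without PI mouse 2, at 1.86 and -1.93. In differentiated hormone-sensing cells *Col9a3* had only 23 and 6 UMIs at NP and 4 in PI mouse 2. In luminal progenitors *Col4a6* was not called, at 21.4 and 22.8 CPM at NP and 19.9 and 22.7 CPM at PI.

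*Col9a1* marked the alveolar differentiated cells among luminal types. It stood at 64.8 and 58.7 CPM in these cells at G and at 83.1 and 113 CPM at L (log2 1.59 ± 0.20, edgeR adjusted p = 0.000131). In alveolar progenitors it went from 16.8 and 9.36 to 47.9 and 35.7 CPM (log2 2.0 ± 0.33, edgeR adjusted p = 0.00218), while it fell in basal cells over the same step. A UMI was seen in 48.4% and 40.9% of C8 cells and 52.6% and 45.5% of C13 cells at G, but in 0.604% and 0.741% of C14 cells at L and 0.161% or less of C3 cells. At an expected depth of 1000 UMIs the first 2 pairs were 6.16% and 5.59%, and 11.3% and 9.99%. Relative to basal cells of the same mouse, alveolar differentiated cells held 55.2% and 58.8% of the *Col9a1* level at G and 5668% and 7496% of it at L, where the basal level was near 0.

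Of 23 members tested in alveolar differentiated cells from G to L, 7 were higher and 1 lower, and 18.7% of all genes were called. Milk protein genes took 96653 and 57393 CPM of these cells at G and 443712 and 416266 CPM at L, so fitted changes, which TMM scales, exceed ratios of CPM; with library totals in place of TMM the median of all genes was -1.05, against -0.14, and 5 members were higher and 4 lower. RLE scaling called 7 higher and 0 lower, and DESeq2 8 higher and 0 lower. *Col17a1* was at 1.02 and 1.28 CPM at G and 19 and 8.05 CPM at L (log2 4.40 ± 0.59, edgeR adjusted p = 0.000244). *Col18a1*, *Col6a1* and *Col14a1* had log2 changes of 3.57, 3.94 and 3.39. *Col4a5* rose by 1.63 ± 0.31, and *Col4a2* was called at overlapping values; under library totals neither was called. The L sums held 43 and 48 cells, and 2 members were called without G mouse 1, 2 without G mouse 2 and 5 without L mouse 1. *Col17a1* and *Col18a1* lost their calls without either G mouse, *Col14a1*, *Col4a2* and *Col16a1* without either G mouse or L mouse 1, *Col16a1* also without L mouse 2, and *Col6a1* without L mouse 1, while *Col9a1* and *Col4a5* kept theirs. The basal markers other than *Oxtr* moved with these values. The median of the 7 markers was 0.821% and 0.789% of the basal level in these cells at G and 6.2% and 3.6% at L. *Oxtr* fell on this measure, from 27.3% and 25.8% at G to 7.23% and 3.6% at L. *Col17a1* was at 7.93% and 3.03% of its own basal level at L. The part of basal RNA in these values was not tested.

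In alveolar progenitors 10 members were higher and 1 lower of 16 tested, with 28% of all genes called, and DESeq2 called 7 higher and 0 lower. *Col17a1* went from 0 and 2.50 to 36.3 and 29.9 CPM (log2 4.78 ± 0.57, edgeR adjusted p = 0.000323) and *Col6a1* from 0 and 6.86 to 28.4 and 40.3 CPM (log2 3.42 ± 0.62, edgeR adjusted p = 0.00329). *Col4a1* was at 25.2 and 26.8 CPM at G and 49.6 and 46.0 CPM at L (log2 1.16 ± 0.23, edgeR adjusted p = 0.00565). *Col9a3* was the 1 that fell (log2 -1.65 ± 0.39, edgeR adjusted p = 0.0127), a call lost without G mouse 1. *Col18a1*, *Col6a2*, *Col14a1*, *Col7a1* and *Col4a2* were higher by 4.66, 3.52, 2.97, 2.31 and 1.52 on the log2 scale, *Col7a1* losing its call without G mouse 1 or L mouse 1. *Col3a1* was called at overlapping values and lost the call without G mouse 2 or L mouse 1.

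In alveolar progenitors, too, the basal markers other than *Oxtr* moved with these values. The median of the 7 markers was 1.04% and 1.18% of the basal level at G. *Oxtr* fell on this measure, from 48.1% and 40.4% at G to 18% and 14.6% at L. The 7 basal markers were at 12.1 to 18% of their basal level in alveolar progenitors of L mouse 1 and at 10.6 to 14.6% in L mouse 2, with medians of 13.3% and 12.6%. In the same sums *Col17a1* was at 15.1% and 11.3% of its basal level, *Col4a1* at 15.9% and 13.5% and *Col4a2* at 14.9% and 13%, within the range of the markers. *Col6a2* stood above it at 30.2% and 76.3%, as did *Col4a6* at 35.9% and 51.9% and *Col9a1* at 3263% and 2370%. Among others above the marker range in both mice were *Col6a1* (23.9% and 47.9%), *Col9a3* (32.8% and 25.6%), *Col7a1* (21.9% and 20.1%) and *Col4a5* (20.7% and 24.4%). The remaining called members, *Col3a1*, *Col18a1* and *Col14a1*, were not above it in both. At G the progenitors held 2.20% and 2.39% of the basal *Col4a1* level. The part of basal RNA in the lactation values was not tested.

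Genes that make, modify and bind collagen were read in 5 lists beside the members. In basal cells from NP to G, 15 of 28 tested genes for collagen synthesis and modification rose and 2 fell, including *Plod2*, a lysyl hydroxylase (18.3 and 18.7 to 40.0 and 46.7 CPM, log2 1.31 ± 0.19, edgeR adjusted p = 6.3e-05) and *P3h1*, a prolyl hydroxylase (log2 1.3 ± 0.24, edgeR adjusted p = 0.000382). Over all genes 21% rose and 18.9% fell in this comparison. Basement membrane partners rose in 16 of 20 and fell in 1: *Nid1*, which bridges laminin and type IV collagen, went from 21.2 and 16.8 to 84.8 and 105 CPM (log2 2.37 ± 0.19, edgeR adjusted p = 1.32e-07), and the laminin chain *Lama1* from 5.17 and 5.46 to 58.4 and 38.8 CPM (log2 3.27 ± 0.27, edgeR adjusted p = 2.06e-07). Fibril partners rose in 8 of 15 and fell in 1, and collagen-degrading proteases with their inhibitors rose in 4 of 8 and fell in 1, the inhibitor *Timp1*, from 65.3 and 64.6 to 19.9 and 20.4 CPM. Of 7 collagen receptors 1 rose and 1 fell, no larger a share than over all genes: the integrin chain *Itga1* rose by 1.86 ± 0.27 on the log2 scale and *Itga11*, another, named after its values were seen, fell from 2.59 and 2.28 to 0.252 and 0.224 CPM (edgeR adjusted p = 0.0112).

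From G to L the synthesis list turned, with 5 higher and 13 lower of 28, beside 25.2% and 24.9% over all genes. *P4hb*, the shared subunit of prolyl 4-hydroxylase, fell from 195 and 228 to 80.5 and 65.8 CPM (log2 -1.40 ± 0.14, edgeR adjusted p = 5.66e-07). Basement membrane partners had 4 higher and 9 lower of 20, *Nid1* falling to 24.0 and 20.4 CPM while the laminin chain *Lamb3* rose from 149 and 130 to 271 and 292 CPM. *Itga1* rose again, to 85.3 and 95.7 CPM (log2 1.49 ± 0.20, edgeR adjusted p = 1.14e-05). *Nid1* thus rose and fell as *Col4a1* did, while *Lamb3*, which had also risen from NP to G (log2 0.47 ± 0.14, edgeR adjusted p = 0.0157), rose at both steps as *Col17a1* did.

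From NP to PI, 1 synthesis gene of 28 was called in basal cells (1.92% of all genes were higher and 2.54% lower), the collagen chaperone *Serpinh1*, which fell from 456 and 457 to 227 and 179 CPM (log2 -1.37 ± 0.19, edgeR adjusted p = 0.000352). In differentiated hormone-sensing cells 5 of 20 synthesis genes rose and 0 fell by edgeR, with 14.3% of all genes called in either direction, led by *Pcolce*, an enhancer of procollagen processing, from 4.46 and 3.99 to 40.8 and 37.5 CPM (log2 3.15 ± 0.18, edgeR adjusted p = 2.08e-06). *Col8a1* was the 1 member that rose in these cells.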

How the data were processed

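Single-cell RNA-seq libraries of 8 mice were aligned with STAR to mm10 per the labels' processing notes, and the authors deposited filtered UMI counts per gene and cell with a table of cells, filters and clusters, made with Cell Ranger by their methods. The deposited count values are raw, and no column was normalised. Here, UMIs of cells passing the authors' filters were summed per mouse and cluster (20 or more cells) and expressed as CPM. Sums per mouse and cell type were tested with edgeR 4.0.16 in R 4.3.3 (TMM, filterByExpr with a minimum count of 10 and a minimum total of 15, quasi-likelihood F-test, Benjamini-Hochberg over all genes tested, threshold 0.05). The basal comparisons shared 1 fit of 8 mice, and the other cell types used the 4 mice of their 2 stages. DESeq2 1.42.0 and RLE scaling were among the alternatives. Depth was 13306760 to 34552742 UMIs per library. Intervals and floors (3 counts for a zero) cover counting error only. The scripts were tested on simulated data, with changes of 2 on the log2 scale set in 200 genes. For basal NP to PI 58.5% of these were recovered, and 7.14% of the calls were false. For alveolar differentiated cells 80% were recovered, and 94.5% to 99.5% in the other stage comparisons. The authors removed doublet cells (C20), which were left out. Every member was accounted for, those with a mean of 20 CPM in a tested cell type (23 of 39) or a call being the ones named with values. The pathway genes named are examples among those called, and others with larger changes were left out. The members, gene lists and comparisons were chosen with earlier results of these data known. Each p-value rests on 2 mice per stage, with the spread estimated over all mice of the fit and borrowed across genes.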

Additional observations from a re-analysis of the deposited data

Results flagged for a closer look

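Some collagen genes differed in their NP to PI change between cell types, by an interaction term in edgeR with mouse in the model. Basal minus differentiated hormone-sensing cells, the log2 difference was 3.23 for *Col4a6* (adjusted p = 0.0014), -2.23 for *Col16a1* (adjusted p = 1.55e-05), -1.75 for *Col4a1* (adjusted p = 0.000284) and -1.75 for *Col7a1* (adjusted p = 0.0351). In *Col4a6* the fall was in the hormone-sensing cells, and in *Col4a1* and *Col7a1* in the basal cells, whose PI sums held 28 and 59 cells. Without PI mouse 2 the value for *Col16a1* was 0.012.

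Luminal progenitors minus differentiated hormone-sensing cells, it was 3.92 for *Col4a6* (edgeR adjusted p = 1.72e-05), 2.72 for *Col9a3* (adjusted p = 0.0397), 2.56 for *Col4a2* (adjusted p = 0.0194), 1.66 for *Col4a5* (adjusted p = 0.000229) and -2.67 for *Col16a1* (adjusted p = 0.000511). The values for *Col4a6* and *Col4a5* stayed past the threshold in 7 of 7 alternatives, those for *Col4a2* and *Col16a1* in 6 and that for *Col9a3* in 5.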

How the results depend on the processing

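Of 1346 values of the 116 calls under the alternatives, 1142 kept direction and threshold, 202 lost the threshold and 2 reversed: *Col1a2* in luminal progenitors (from -7.11 to 0.84 on leaving out 1 mouse, positive without NP mouse 2) and *Col16a1* in the basal minus hormone-sensing difference (from -3.06 to 0.012, positive without PI mouse 2). The study's own thresholds (glmTreat at a log2 fold change of 1, FDR 0.01) gave 11 for basal NP to G, 10 for G to L, 10 for NP to L, 0 for NP to PI (5 by edgeR without that bound), 2 for luminal progenitors, 0 for hormone-sensing progenitors, 1 for differentiated hormone-sensing cells, 2 for alveolar differentiated cells and 3 for alveolar progenitors. At equal depth fewer members were tested, and the counts were 7, 9, 6 and 2 for the basal comparisons in that order and 3 in both differentiated luminal types. The study's filter of 0.1 UMIs per cell gave 2 for basal NP to PI, 1 for luminal progenitors, 2 for hormone-sensing progenitors, 2 for differentiated hormone-sensing cells and 3 for alveolar differentiated cells. Without a filter, 11 were called in luminal progenitors and 11 in differentiated hormone-sensing cells. DESeq2 gave 3, 4 and 7 for hormone-sensing progenitors, differentiated hormone-sensing cells and alveolar progenitors, and RLE 3 for basal NP to PI. Leaving out 1 mouse at a time gave 15 to 23 for basal NP to G, 20 to 23 for G to L, 18 to 23 for NP to L, 1 to 4 for NP to PI, 6 to 11 for luminal progenitors, 2 to 6 for hormone-sensing progenitors, 4 to 7 for differentiated hormone-sensing cells, 2 to 8 for alveolar differentiated cells, 8 to 12 for alveolar progenitors, 0 to 4 for the basal difference and 5 to 7 for the luminal progenitor difference. Taking milk protein genes out of the total raised *Col9a1* to means of 67.0 CPM (C8) and 173 CPM (C9). Chosen after seeing the data, the basal fit without PI mice gave 23, 21 and 22, and library totals gave 9 and 10 in the alveolar types. The cause of these shifts was not tested, save that equal depth and the filters test fewer genes.

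In basal sums same-numbered mice did not deviate together (correlations from -0.0434 to 0.0161 over 11870 genes). This covers basal cells alone, with few cells at PI, and cannot show that the replicate numbers carry no pairing. A replicate block gave 23, 24, 22 and 5 called members in the basal comparisons, 7, 4 and 10 in the luminal NP to PI comparisons, 8 and 11 in the alveolar ones and 3 and 4 in the differences.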
